A study of Mus musculus with 2 samples.

Results

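The genes described here are 39 genes of interferon signalling and the interferon response. They were chosen by name and role, but with earlier results of these data known. Of the 39, 6 encode interferon receptor chains and the kinases bound to them, and 7 encode STAT and IRF transcription factors. The other 26 are RNA sensors and antiviral genes that interferon induces. All 39 had a row among the 54531 genes of the deposited table, which gives FPKM (fragments per kilobase of gene model per 1000000 fragments). The RNA came from haematopoietic stem cells (HSCs) of mouse bone marrow, with 1 library per genotype. The library called control here has the genotype label Angptl2fl/fl, that is, floxed alleles of Angptl2, which encodes a secreted angiopoietin-like protein. The deletion library has the genotype label Cdh5-Cre;Angptl2fl/fl, in which Cre is driven by the promoter of the endothelial cadherin gene Cdh5, and its mice are labelled as deficient for Angptl2 in endothelial cells. The floxed alleles are therefore shared by both genotype labels. The control sample's description and column name read Cdh5_Cre, however, so the labels do not settle whether the control mice carried Cre or floxed alleles. Sex, age, strain background, the markers of the sort and the number of mice pooled do not appear in the sources used here. Neither genotype has a replicate, so there are no p-values, and all comparisons are between these 2 libraries.

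Type I interferons signal through the receptor chains encoded by Ifnar1 and Ifnar2, and interferon gamma through those encoded by Ifngr1 and Ifngr2. The receptors carry JAK1 with TYK2 or JAK2, which phosphorylate STAT proteins. A complex that holds STAT2 and IRF9 binds the interferon-stimulated response element (ISRE) in front of antiviral genes, while the gamma-activated site (GAS) serves interferon gamma. In HSCs, type I interferon is known for driving quiescent cells into cycle, and stem cells are known for keeping some antiviral genes, the Ifitm genes among them, switched on without interferon.

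FPKM times exon length fell within 0.02 of a whole number of fragments for 96.5% (control) and 96.1% (deletion) of the genes above 0, which gave depths of 17378600 and 16843100 fragments and a fragment number for every gene of the set. The libraries differed in their rare transcripts. Above 0 were 21891 genes of the control and 18217 of the deletion library, and genes with just 1 fragment numbered 1389 and 295. The most common fragment number above 0 was 1 for the control and 6 for the deletion library. Stem and progenitor markers were present in both: Kit stood at 54.3 FPKM in the control and 48.8 FPKM in the deletion library, and Gata2 at 42.2 and 40.3 FPKM. Of 11 such markers at 1 FPKM or more, 10 had a log2 ratio below 0 on the log2(FPKM + 1) scale, beside 51.6% of all genes at that level. The median of the 11 was -0.16, and Cd48 was higher, at 8.23 and 16.3 FPKM. Slamf1, a marker of the most primitive HSCs, was at only 0.40 and 0.55 FPKM. Neutrophil genes were abundant, with Ltf at 112 and 36.3 FPKM.

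The receptors and kinases stood at nearly the same level in both libraries, whereas Irf7 and most OAS, Mx and other antiviral genes were lower in the deletion library. Of the 39 genes, 29 were lower and 10 higher, while 58.0% of the 23003 genes with a mean above 0 were lower. Among the 33 with a mean of at least 1 FPKM, 23 had a log2 ratio below 0, a share of 69.7%, against 51.6% of the 12325 genes at that level. Log2 ratios are deletion over control on the log2(FPKM + 1) scale unless called plain, and that scale understates differences of low genes. The median was -0.17 for these 33 genes and -0.011 for all genes. None of the 33 was at least 2-fold higher, where 2.47% of all genes were, and none was at least 2-fold lower, where 3.38% were. With a pseudocount of 0.1 in place of 1, 0 were past 2-fold higher (3.82% of all genes) and 2, Oas3 and Rsad2, past 2-fold lower (4.86% of all genes). The other 6 genes (Zbp1, Ifit1, Ifit3, Ifi44, Mx1 and Mx2) lay under 1 FPKM, and all 6 were lower in the deletion library. Of the 10678 genes with a mean above 0 and under 1 FPKM, 65.4% were lower as well. After rescaling each library to the same total, the median of all genes moved from -0.011 to -0.15 and that of the 33 to -0.32. Under that scaling Ifnar1, Ifnar2, Ifngr1, Irf3, Ifih1 and Ifit2, all slightly above 0 otherwise, turned below 0, and Irf7, Oas1a and Oas3 passed 2-fold lower.

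**Figure D1:**
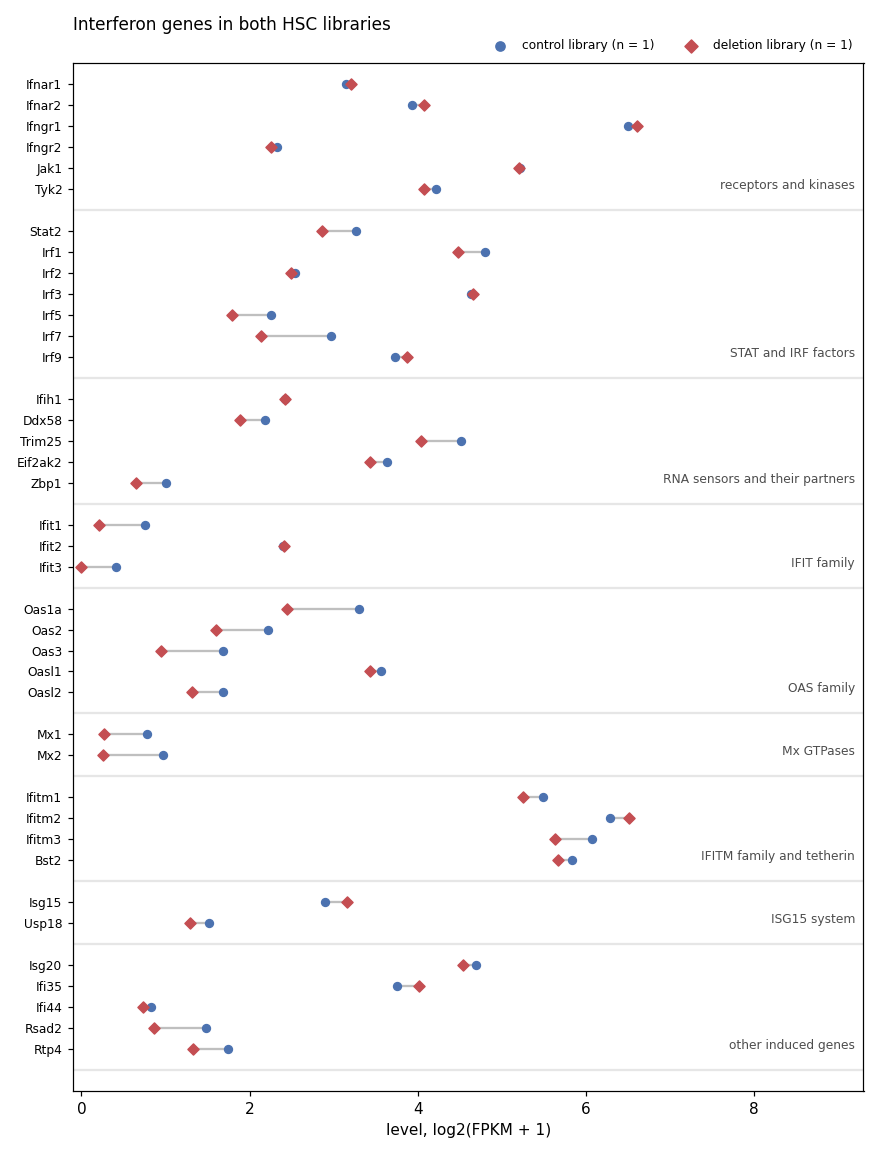
Level of each of the 39 genes as log2(FPKM + 1), with the control library as blue circles and the deletion library as red diamonds (1 library each, so no error bars), grouped by role. Receptor and kinase genes lie almost on top of each other, while Irf7, Oas1a, Oas2, Oas3, Rsad2, Mx1 and Mx2 lie further left in the deletion library and Ifitm2, Isg15 and Ifi35 further right.

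A ratio without pseudocount was also read for each gene, with an exact Clopper-Pearson 95% interval from its fragments. Such an interval covers counting error only, and since PCR copies are not separate molecules it was computed again with the fragments divided by 6. On the plain ratio 8 of the 39 genes were at least 2-fold lower and 0 at least 2-fold higher. The share has to be read against genes of like depth. With a mean of 500 to 5000 fragments, 0 of 18 interferon genes were that much lower, against 0.386% of all genes. At 100 to 500 fragments they were 3 of 11 (Irf7, Oas1a and Oas3), against 3.55% of all genes. At 20 to 100 fragments they were 3 of 8 (Mx1, Mx2 and Rsad2), against 17.8%. Below 20 fragments both members, Ifit1 and Ifit3, were past 2-fold lower, where 56.1% of all genes were, while 48.6% of all genes there were listed at 0 in the deletion library. Of the 33 genes, 18 had a counting interval wholly below 0 and 5 wholly above, against 30.0% and 26.8% of the 11704 genes at that level with fragment numbers. With the fragments divided by 6 the numbers were 8 and 0, against 9.96% and 8.21%. The 8 were Irf7, Irf1, Stat2, Trim25, Oas1a, Oas2, Oas3 and Ifitm3. In the other direction, 24.5%, 10.2%, 1.86% and 0.235% of all genes were past 2-fold higher from the fewest to the most fragments, and 0 members in each range. No measure of the variation between mice enters these intervals.

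**Figure D2:**
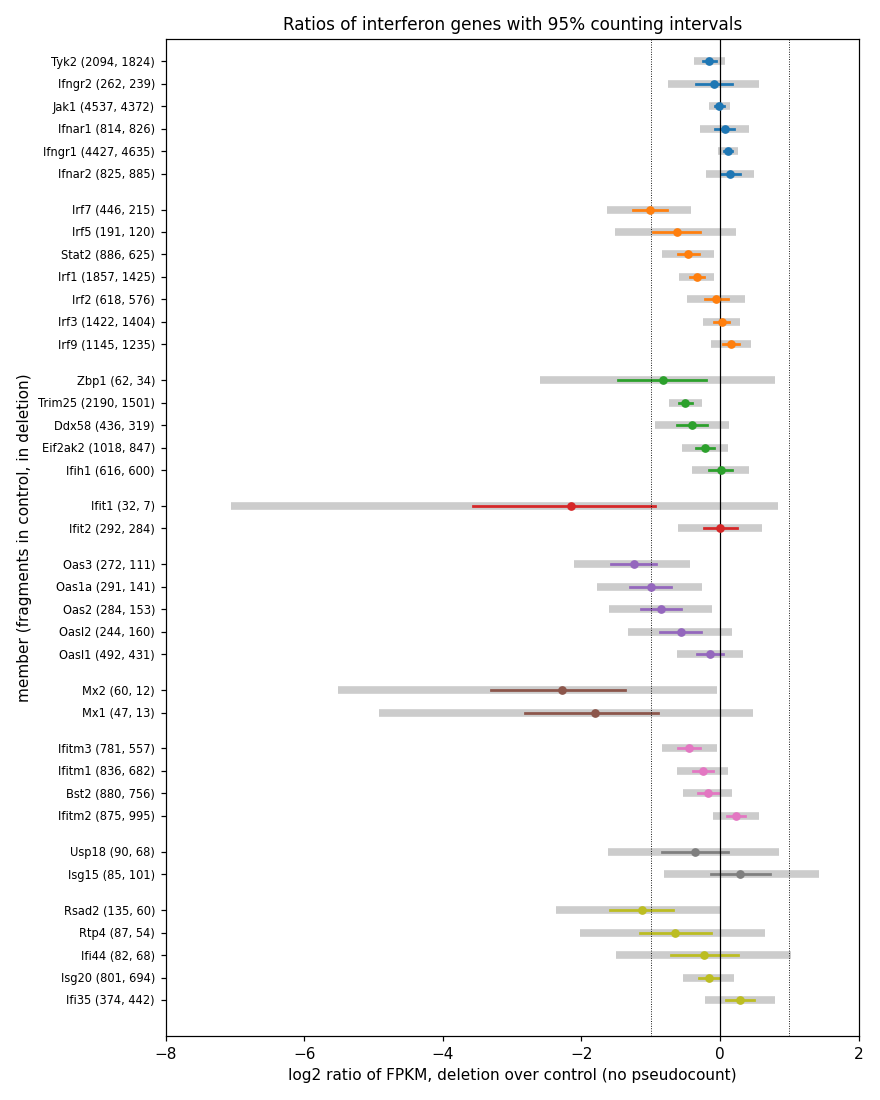
Plain log2 ratio of FPKM (deletion over control) for 38 of the 39 genes, with 95% counting intervals as coloured lines and the intervals with fragments divided by 6 as grey bars; the fragments in the control and deletion library follow each name, and dotted lines mark 2-fold. Ifit3 is left out because it had 0 fragments in the deletion library, and the grey bars of 8 genes averaging 1 FPKM or more lie wholly below 0 while none lies wholly above.

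Among the receptor chains, Ifngr1 was by far the most abundant, at 89.5 FPKM in the control and 96.7 FPKM in the deletion library. Ifngr2, its signalling partner, was much scarcer, at 4.002 and 3.77 FPKM. The type I chain Ifnar1 was at 7.89 and 8.26 FPKM. Its partner Ifnar2 was at 14.3 and 15.8 FPKM. In both libraries, then, the ligand-binding chain of the interferon gamma receptor was the most abundant of the 4 chains and Ifngr2 the least. Jak1, the kinase that all these receptors use, was at 36.1 and 35.9 FPKM, from 4537 and 4372 fragments. Its plain log2 ratio of -0.0083 had an interval from -0.069 to 0.052, the narrowest of the set apart from that of Ifngr1. Tyk2, the partner kinase at the type I receptor, was at 17.6 and 15.8 FPKM. The 6 log2 ratios ran from -0.15 (Tyk2) to 0.14 (Ifnar2), 3 below 0 and 3 above, though Ifnar1, Ifnar2 and Ifngr1 also fell below 0 with the libraries rescaled to the same total, and no interval excluded 0 with fragments divided by 6. Ifnar2, Il10rb, Ifnar1 and Ifngr2 sit side by side on chromosome 16 (91372783 to 91565623, GRCm38, 193 kb). Il10rb, which encodes a chain shared by the interferon lambda and interleukin-10 receptors, was at 4.90 and 4.43 FPKM, so the log2 ratios across that cluster stayed between -0.12 and 0.14.

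Transcription factors of the pathway did not move as a block. Irf7, the factor that amplifies type I interferon production and is itself induced by interferon, was at 6.80 FPKM in the control and 3.38 FPKM in the deletion library (446 and 215 fragments). Its plain log2 ratio was -1.01, with an interval from -1.25 to -0.77, and from -1.63 to -0.41 with fragments divided by 6. Irf7 lies on chromosome 7 (141262706 to 141266481, minus strand, GRCm38). Stat2, a subunit of the type I complex, was at 8.60 and 6.26 FPKM, a plain log2 ratio of -0.46 (-0.61 to -0.31). Irf1, which interferon gamma induces strongly, was at 26.9 and 21.3 FPKM, a plain log2 ratio of -0.34 (-0.44 to -0.24). These 3 factors and Irf5, a factor of Toll-like receptor signalling at 3.78 and 2.45 FPKM, were the lower ones. Irf5 rested on 191 and 120 fragments, and its interval with fragments divided by 6 included 0. Irf3, which is present before any stimulus and is activated by phosphorylation, was at 23.8 and 24.2 FPKM. Irf9, the DNA-binding subunit of the STAT complex, was at 12.2 and 13.6 FPKM. Irf2, a repressor of Irf1 targets, was at 4.81 and 4.62 FPKM, and its plain interval of -0.22 to 0.11 included 0. Of the 7 factors, 5 (Irf2 among them) had a log2 ratio below 0 and 2 above, with a median of -0.32. Over all genes at 1 FPKM or more, 51.6% were below 0 and the median was -0.011.

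Of the RNA sensors and their partners, Trim25 was the most abundant and the one with the tightest lower ratio. Trim25, the ubiquitin ligase that acts on RIG-I, was at 21.9 FPKM in the control and 15.5 FPKM in the deletion library (2190 and 1501 fragments). Its plain log2 ratio was -0.50, with an interval from -0.60 to -0.40, and from -0.74 to -0.26 with fragments divided by 6. Ddx58, which encodes RIG-I, the sensor of RNA with a triphosphate end, was at 3.56 and 2.69 FPKM. Ifih1, which encodes the sensor of long double-stranded RNA, MDA5, was at 4.34 and 4.36 FPKM. The 2 sensors of the same family had a plain log2 ratio of -0.41 (-0.62 to -0.19) for Ddx58 and 0.0072 (-0.16 to 0.17) for Ifih1. Both intervals include 0 with fragments divided by 6, and the difference between the genes was not tested. Eif2ak2, the kinase PKR that halts translation on double-stranded RNA, was at 11.5 and 9.84 FPKM. Zbp1, a sensor of Z-form nucleic acid that can trigger necroptosis, was the scarcest of this group at 1.01 and 0.57 FPKM, from 62 and 34 fragments.

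The OAS family had 5 of 5 members lower in the deletion library under every scaling tried, with a median log2 ratio of -0.62. For comparison, 51.6% of all genes at 1 FPKM or more were below 0, and 69.2% with the libraries rescaled to the same total. OAS enzymes make short oligoadenylates that switch on RNase L, which degrades RNA. Oas1a (chromosome 5, 120896256 to 120907521, minus strand, GRCm38) was at 8.88 FPKM in the control and 4.44 FPKM in the deletion library (291 and 141 fragments). Its plain log2 ratio was -1.0002, with an interval from -1.30 to -0.71, and from -1.78 to -0.26 with fragments divided by 6. Oas3 was at 2.21 and 0.93 FPKM, 2.38-fold lower on the plain ratio, from 272 and 111 fragments. Oas2 was at 3.67 and 2.04 FPKM, 1.799-fold lower, from 284 and 153 fragments. These 3 genes stand in 1 cluster on chromosome 5 (120730333 to 120907521, 177 kb) with further Oas1 copies, and the cluster was not uniformly lower. Oas1c was at 2.20 FPKM in the control and 3.04 FPKM in the deletion library. Oas1b was at 2.40 and 2.27 FPKM. Oas1 copies are alike in sequence, so fragments may have been split among them. The OAS-like genes, at another site on chromosome 5, differed less. Oasl1, which restrains translation of Irf7 mRNA, was at 10.9 and 9.81 FPKM, and its plain interval of -0.34 to 0.044 included 0. Oasl2 was at 2.20 and 1.49 FPKM, and its interval with fragments divided by 6, -1.33 to 0.18, included 0.

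Genes of the IFIT and Mx families, which are among the most strongly induced by type I interferon, were close to absent from both libraries, apart from Ifit2. IFIT proteins bind viral RNA and block its translation. Ifit2 was at 4.28 FPKM in the control and 4.29 FPKM in the deletion library (292 and 284 fragments). Ifit1 had 32 and 7 fragments (0.69 and 0.16 FPKM). Ifit3 had 10 and 0 fragments, and counting 3 fragments as the limit that 0 allows, it was at least 3.23-fold lower in the deletion library if the 10 fragments are taken as exact. The upper end of its counting interval was -1.12 on the plain log2 ratio, and 3.07 with fragments divided by 6, which bounds no difference. The 3 genes lie within 99.3 kb of chromosome 19 (34550694 to 34650009). Neighbours in this cluster therefore differed widely in level, with Ifit2 above the others in both libraries. Mx1 and Mx2 encode dynamin-like GTPases that trap viral nucleocapsids, and GENCODE lists Mx2 as a polymorphic pseudogene. Mx1 had 47 and 13 fragments (0.71 and 0.20 FPKM). Mx2 had 60 and 12 fragments (0.96 and 0.20 FPKM), a plain log2 ratio of -2.28 with an interval from -3.31 to -1.37. At this depth, where 17.8% of all genes were past 2-fold lower, these ratios stand on few fragments.

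Among the induced members, the IFITM genes and Bst2 were the most abundant in both libraries, at 37.0 FPKM or more, and they did not share a direction. IFITM proteins hinder fusion of virus and cell membranes. Ifitm3 was at 66.3 FPKM in the control and 48.8 FPKM in the deletion library (781 and 557 fragments), a plain log2 ratio of -0.44 (-0.60 to -0.28, and -0.84 to -0.047 with fragments divided by 6). Ifitm1 was at 44.0 and 37.0 FPKM, a plain log2 ratio of -0.25 (-0.40 to -0.10). Ifitm2 went the other way, at 76.9 and 90.2 FPKM, a plain log2 ratio of 0.23 (0.098 to 0.36, and -0.099 to 0.56 with fragments divided by 6). The order of the 3 genes was Ifitm2, Ifitm3, Ifitm1 in both libraries. Ifitm1 to Ifitm3 are close paralogs within 1 cluster on chromosome 7 and may exchange fragments. Ifitm6, also in that cluster but no member of the 39, was at 33.2 and 11.2 FPKM, a log2 ratio of -1.49. Bst2 encodes tetherin, which holds budding virus at the cell surface, and was at 56.1 and 49.7 FPKM.

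Isg15 and Ifi35 were the members with the highest log2 ratios, 0.26 and 0.27. Isg15, a ubiquitin-like modifier and a usual reporter of interferon exposure, was at 6.47 FPKM in the control and 7.93 FPKM in the deletion library (85 and 101 fragments), and its interval of -0.14 to 0.73 on the plain ratio included 0. Usp18, the protease that removes ISG15 and dampens signalling at IFNAR2, was at 1.86 and 1.45 FPKM. Ifi35 was at 12.5 and 15.2 FPKM, from 374 and 442 fragments, with a plain interval from 0.084 to 0.49 that included 0 with fragments divided by 6. Rsad2 encodes viperin, which makes a chain-terminating nucleotide. It was at 1.79 and 0.82 FPKM, 2.18-fold lower on the plain ratio, from 135 and 60 fragments. Rtp4 was at 2.35 and 1.504 FPKM, Isg20, an exonuclease, at 24.8 and 22.2 FPKM, and Ifi44 at 0.77 and 0.66 FPKM. Induced genes thus spread from Oas1a to Ifi35, and of the 20 RNA sensors and induced genes at 1 FPKM or more, 15 had a log2 ratio below 0, with a median of -0.23. Of all genes at that level, 51.6% were below 0.

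**Figure D3:**
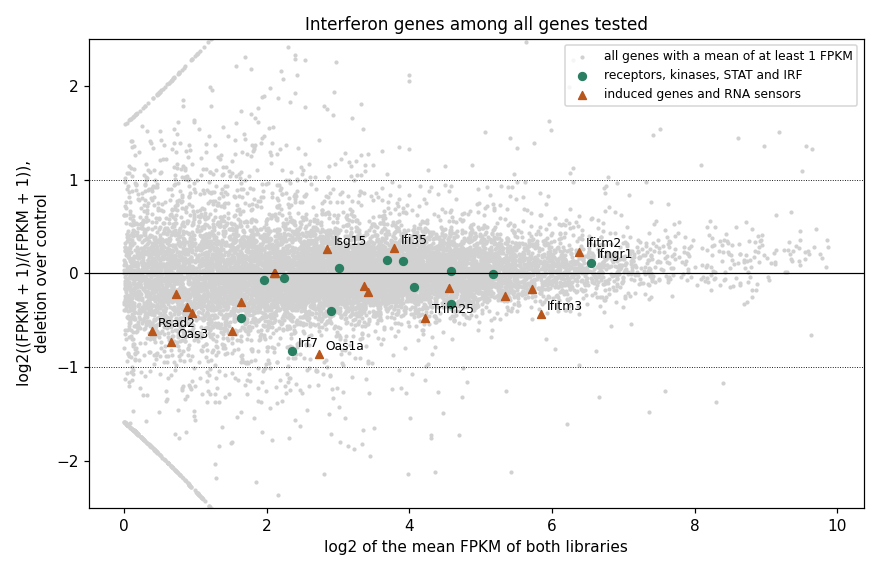
Log2 ratio on the log2(FPKM + 1) scale against the log2 of the mean FPKM of both libraries, for genes averaging 1 FPKM or more (grey), the signalling members (green circles) and the sensors and induced members (orange triangles), with dotted lines at 2-fold. All 33 members lie between the dotted lines, and 125 genes beyond 2.5 on the vertical axis and 27 genes with a mean of 1000 FPKM or more are not drawn.

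Promoter sequences show which members hold, near the start site, a match to the core of the element that the complex with STAT2 and IRF9 binds. RefSeq promoters on GRCm38.p6, which run from 250 bases before to 50 bases after the start site, were found for 33 of the 39 genes. They were searched on both strands for the ISRE core GAAA-NN-GAAA (N is any base, and the hyphens are not part of it), counting overlapping matches. It was present for 14 of 33 members (42.4%), against 3.99% of 27025 genes. It occurred in 12 of 20 sensors and induced genes and in 2 of 13 signalling genes, Irf2 and Stat2. The 8 stretches of 70 bases below are shown because they hold the matches of genes at both ends of the ratios. Each reads 5′ to 3′ on the strand of the gene, with ISRE cores in capitals, which appear as TTTC-NN-TTTC where the match is on the opposite strand:
Oas1a, chr5:120907503-120907572, minus strand: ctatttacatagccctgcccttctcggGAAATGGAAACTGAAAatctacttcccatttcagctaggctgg
Oas3, chr5:120777695-120777764, minus strand: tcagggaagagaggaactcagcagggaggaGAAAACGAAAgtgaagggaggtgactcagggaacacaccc
Rsad2, chr12:26456533-26456602, minus strand: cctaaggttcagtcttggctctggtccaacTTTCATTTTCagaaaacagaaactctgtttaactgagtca
Ifit1, chr19:34640764-34640833, plus strand: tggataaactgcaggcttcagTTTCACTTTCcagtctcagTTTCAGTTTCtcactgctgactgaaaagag
Ifit3, chr19:34583360-34583429, plus strand: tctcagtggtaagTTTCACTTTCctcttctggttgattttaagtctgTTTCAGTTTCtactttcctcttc
Ifitm3, chr7:141010715-141010784, minus strand: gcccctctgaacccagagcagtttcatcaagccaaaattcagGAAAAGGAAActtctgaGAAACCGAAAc
Ifitm2, chr7:140955968-140956037, minus strand: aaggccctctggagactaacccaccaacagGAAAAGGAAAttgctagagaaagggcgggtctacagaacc
Isg15, chr4:156200851-156200920, minus strand: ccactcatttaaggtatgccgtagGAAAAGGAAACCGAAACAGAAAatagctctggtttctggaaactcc

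The Isg15 promoter held 3 overlapping cores, the largest number among the members, and Isg15 was among the genes higher in the deletion library. Oas1a held 2 overlapping cores, from 20 to 5 bases before the start site, and had the lowest log2 ratio of the 33. Ifit1 and Ifit3 carried the same pair of cores, GAAAGTGAAA and GAAACTGAAA. Ifitm2 and Ifitm3 shared the core GAAAAGGAAA, with opposite signs of their ratios. Among members at 1 FPKM or more, the median log2 ratio was -0.25 for 12 with the core and -0.10 for 18 without it, 9 and 11 of them below 0. These 2 sets differ in make-up, since 11 of the 18 were signalling genes, with a median of -0.0081. Within the sensors and induced genes, the medians were -0.25 for 10 with the core and -0.16 for 7 without it. Below 0 were 7 of those 10 and 5 of those 7, and the difference was not tested. Among the other genes that type I interferon induces, both medians were -0.29, with 6 of 11 genes with the core and 17 of 20 without it below 0. Over all genes the medians were -0.038 for 316 genes with the core and -0.014 for 8130 without. The GAS core TTCNNNGAA was present for 11 of 33 members (33.3%), against 9.55% of all genes, and the members with and without it had medians of -0.16 and -0.15. A match is a description of the letters and says nothing about binding in these cells. Nor does a missing match show that a gene lacks the element. The bases just after the start site were found in a GENCODE transcript of the gene for 27 of 38 member promoters.

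Other genes of the pathway were looked at in the same way, from lists drawn up by known role with earlier results of these data known. Of 117 such genes 116 were matched, and 71 had a mean of at least 1 FPKM. Of these 71, 50 had a log2 ratio below 0 and 21 above, with a median of -0.18. Of all 12325 genes at that level, 51.6% were below 0, with a median of -0.011. With the libraries rescaled to the same total, 69.2% of all genes were below 0, and these lists were not counted anew. In the list of other genes that type I interferon induces, 30 of 40 were below 0 with a median of -0.26, and 1 of 40 was at least 2-fold lower, Ifitm6, beside 3.38% of all genes. Ifi27l2a was next lowest, at 7.58 FPKM in the control and 4.10 FPKM in the deletion library. It rested on 61 and 32 fragments, and its interval with fragments divided by 6 included 0. Phf11b, at 1.02 and 2.26 FPKM (21 and 45 fragments), and Stat4, at 1.32 and 2.36 FPKM (89 and 154 fragments), were highest. Their intervals with fragments divided by 6 also included 0. Cxcl10, an interferon-induced chemokine named after its value was seen, was higher as well, at 8.99 and 13.4 FPKM (352 and 510 fragments). Its interval with fragments divided by 6, 0.083 to 1.09, lay wholly above 0. In this list 1 such interval lay wholly above 0 and 11 wholly below, beside 8.21% and 9.96% of all genes with fragment numbers. Ly6a, which encodes the stem cell surface marker Sca-1 and is interferon-induced, was at 4.49 and 2.86 FPKM, and was also named after its value was seen. The Ly6a ratio rested on 94 and 58 fragments, and its interval with fragments divided by 6 included 0.

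Genes that interferon gamma induces, mostly GTPases that attack intracellular vacuoles, had 7 of 9 log2 ratios below 0 and a median of -0.30. Of all genes at 1 FPKM or more, 51.6% were below 0. On the log2(FPKM + 1) scale 0 of the 9 were past 2-fold. Tgtp2, at 3.78 FPKM in the control and 1.66 FPKM in the deletion library, and Gbp3, at 3.35 and 1.96 FPKM, were lowest. On the plain ratio Tgtp2 was 2.28-fold lower, from 193 and 82 fragments. At 100 to 500 fragments, 3.55% of all genes were past 2-fold lower on that ratio. Ifi47, at 7.42 and 9.65 FPKM, was highest, and Gbp5 followed at 1.06 and 1.37 FPKM. Among other signalling genes and brakes, 9 of 13 were below 0, with a median of -0.12, beside the same 51.6% of all genes. Irf8, a factor of monocytes and dendritic cells, was lowest at 2.10 and 0.58 FPKM, followed by Stat3 at 11.2 and 7.96 FPKM. Ptpn2, a phosphatase that turns off JAK1, was highest at 12.02 and 16.8 FPKM, followed by Socs1, a feedback inhibitor of JAK kinases, at 1.60 and 2.001 FPKM.

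Beside 51.6% of all genes, 4 of 9 genes that sense nucleic acid upstream of interferon had a log2 ratio below 0. Their median of 0.034 turned to -0.089 with a minimum of 5 FPKM, to -0.027 with a minimum of 200 fragments, to -0.0063 with no minimum and to -0.11 with the libraries rescaled to the same total, so it has no settled sign. Dhx58, a regulator of RIG-I and MDA5, was lowest at 6.14 FPKM in the control and 3.76 FPKM in the deletion library, followed by Aim2 at 10.4 and 9.04 FPKM. Tmem173, which encodes STING, was highest at 2.30 and 3.87 FPKM. Mb21d1, which encodes cGAS, the enzyme that signals to STING, was at 3.67 and 5.22 FPKM. Of 21 interferon genes themselves, 16 were listed at 0 in both libraries. The other 5, Ifnb1, Ifna13, Ifnab, Ifnz and Ifng, were listed at 0 in the deletion library and had 1 to 8 fragments in the control library, the most for Ifng, with 8 fragments. Zeros on that side were common at this depth: below a mean of 20 fragments, 48.6% of all genes were listed at 0 in the deletion library, against 11.3% for the control.

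**Figure D4:**
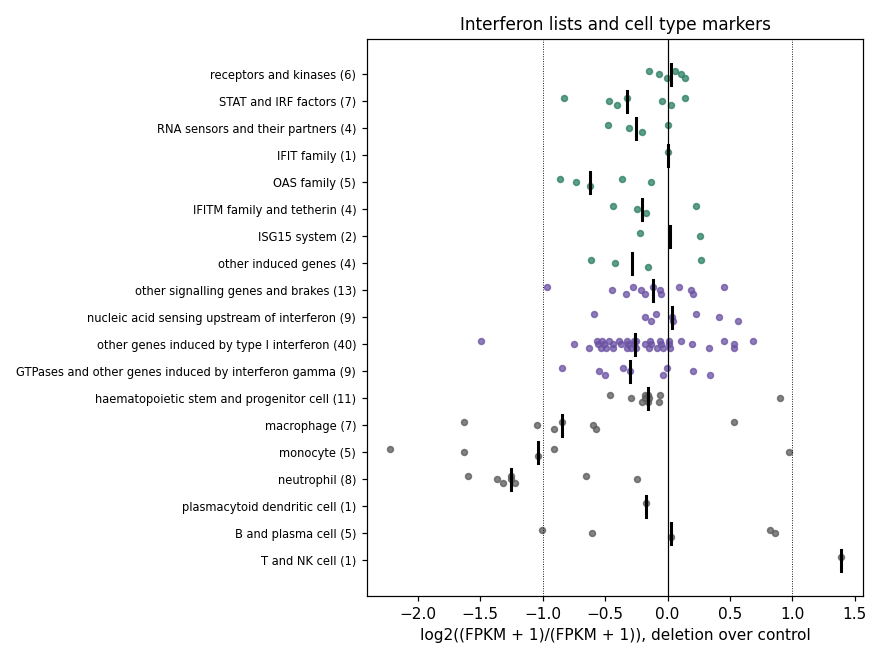
Log2 ratios on the log2(FPKM + 1) scale of the genes averaging 1 FPKM or more in each member group (green), other pathway list (purple) and cell type marker list (grey), with black bars at the medians, dotted lines at 2-fold and the number of genes in brackets. The OAS family has all 5 points below 0, and the neutrophil markers have all 8 points below 0, beside 51.6% of all genes at that level.

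Markers of mature myeloid cells differed between the libraries too, and by more than most interferon genes. The counts below stand beside 51.6% of all genes at 1 FPKM or more with a log2 ratio below 0, and 3.38% at least 2-fold lower. All 8 neutrophil markers were lower in the deletion library, with a summed level of 2517 FPKM in the control and 1437 FPKM in the deletion library, 6 of 8 at least 2-fold lower and a median log2 ratio of -1.25. Of 8 macrophage markers 7 were measured at 1 FPKM or more, 6 of these were below 0, and the summed level was 41.2 and 23.2 FPKM. Csf1r, which is on the monocyte list as well, was at 4.44 and 0.75 FPKM, C1qa at 9.07 and 3.88 FPKM, and Vcam1 went the other way at 3.69 and 5.78 FPKM. Of 5 monocyte markers at 1 FPKM or more, 4 were below 0, while Ly6c2, at 30.4 and 60.8 FPKM, carried the summed level from 48.4 up to 64.5 FPKM. Fn1 was at 6.57 and 0.61 FPKM. None of these markers was at 0 in either library. The part of these cells in the lower interferon genes was not tested, and in bulk RNA fewer cells of a type and less RNA per cell cannot be told apart.

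Defining markers of plasmacytoid dendritic cells, the main producers of type I interferon, were at or near 0 in both libraries. Siglech was at 0.34 and 0.33 FPKM, Ccr9 at 0.12 and 0.041 FPKM, Cox6a2 at 0.68 and 0.79 FPKM and Pacsin1 at 0.21 and 0.055 FPKM, and Klk1 was listed at 0 in both. Bst2, which these cells also express, stood far above them. T cell markers were at 0.085 FPKM or less, as Cd3e and Cd3d show, and were listed at 0 in the deletion library. Nkg7 was higher in the deletion library, at 29.1 and 78.0 FPKM, while Ncr1, at 0.22 and 0.23 FPKM, and Klrb1c, at 0.31 and 0.30 FPKM, were low in both. Among B and plasma cell markers Cd79a was at 3.48 and 6.93 FPKM and Jchain at 22.02 and 14.1 FPKM. The summed level of that list was 38.2 FPKM in the control and 32.7 FPKM in the deletion library, with Ms4a1 at 0.084 and 0.058 FPKM.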

How the data were processed

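RNA of sorted bone marrow HSCs was extracted with TRIzol and columns, and paired-end reads of 150 bp were taken, per the labels' protocols. FPKM values were calculated and deposited by the authors. The submitters' processing notes list Bowtie 0.12.2 and mm8 without saying what each was used for. Which program and gene models gave the FPKM is not given in the sources used here. Columns were matched to samples by the sample descriptions, and samples grouped by genotype. Symbols were found for 54408 of 54531 gene identifiers and exon lengths for 54494, from GENCODE M21 on GRCm38, so positions are not those of the build in the notes. FPKM depends on library totals, and paralogs can exchange fragments.

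Fragment numbers were recovered from FPKM, exon length and the depth, with a tolerance of 0.02. Log2 ratios used a pseudocount of 1 and a minimum mean of 1 FPKM, and 2-fold was the threshold. All genes were computed together, in Python 3.11.15 with SciPy 1.17.1, after a test on simulated data. The members, lists, rules and the divisor of 6 were chosen with earlier results of these data known. Any of the 39 members could be named, as could the cell type markers as listed, and of each other pathway list the 2 highest and 2 lowest. Il10rb, Oas1b, Oas1c, Ly6a and Cxcl10 were named outside this rule, after their values were seen. The split by fragment number was chosen after seeing the data. Alternatives covered pseudocount, minimum level, scaling, gene type and threshold. Having 1 library per genotype, the design allows no test between genotypes.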

Additional observations from a re-analysis of the deposited data

How the results depend on the processing

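No member was at least 2-fold higher under any of the 11 alternatives tried. At least 2-fold lower were 0 members as reported, 2 with a pseudocount of 0.1 (Oas3 and Rsad2, beside 4.86% of all genes), 3 after each library was rescaled to the same total of 1000000 (Irf7, Oas1a and Oas3, beside 4.79%) and 5 at a 1.5-fold threshold (Irf7, Oas1a, Oas2, Oas3 and Rsad2, beside 6.08%). The median log2 ratio of the members, -0.17, was -0.32 with the common total, when the median of all genes was -0.15, and lay from -0.22 to -0.094 under the other settings. The upper end, -0.094, came from scaling without mitochondrially encoded genes, when the median of all genes was 0.058. Counting intervals wholly below 0 numbered 18, and 8 with fragments divided by 6, and those wholly above numbered 5, and 0 with fragments divided by 6. Leaving out mitochondrially encoded genes turned Irf2 and Jak1 above 0, and centring on the median turned Jak1. No paired analysis was possible because each genotype has 1 library. Depth limits Ifit1, Ifit3, Mx1, Mx2 and Zbp1, which rested on 62 fragments or fewer per library.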
